A study of Mus musculus with 24 samples.

Results

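The 6 genes described here encode growth factors of lymphatic vessels and proteins by which lymphatic endothelium is recognised: Vegfc, Vegfd (listed in older annotation as Figf), Flt4, Prox1, Lyve1 and Pdpn. They were found by gene name among the probes of the array that are not controls, and each was represented by its probe with the highest mean log2 signal. All 6 were among the 22065 genes tested, and 10 probes measured them (3 for Vegfc, 2 each for Vegfd and Prox1, and 1 each for Flt4, Lyve1 and Pdpn). The study asked how 3 vitamin derivatives, alone and mixed, change gene expression in isolated whisker follicles. Vibrissa follicles of B6C3F1 mice at postnatal day 9 were kept for 24 h in RPMI 1640 medium with 10% fetal bovine serum. The control medium held no added compound, and the other 7 groups held 0.3% panthenyl ethyl ether (PEE), 0.015% pyridoxine hydrochloride (PH) or 0.024% tocopherol acetate (TA), each of their 3 pairs, or all of them (PEE-PH-TA). Each group had 3 samples from independent experiments, each the pooled RNA of 10 follicles, so that 24 samples were hybridised to 24 one-colour arrays. An isolated follicle has no blood or lymph flow, and its vessels are those left on the dissected tissue.

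VEGF-C and VEGF-D are secreted growth factors that are cut by proteases into their mature forms and bind VEGFR-3, the receptor encoded by Flt4, on lymphatic endothelium. PROX1 is the transcription factor that sets lymphatic identity, and LYVE1 and podoplanin (Pdpn) are surface proteins of lymphatic endothelial cells. None of them belongs to lymphatic endothelium alone: LYVE1 is also found on tissue macrophages, and podoplanin on fibroblasts and epithelial cells. In skin, lymphatic capillaries run along hair follicles and change with the hair cycle.

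Vegfc and Vegfd carry the main differences, and their promoters are shown because both genes were lower in treated follicles while their start regions differ in composition. The sequences are the 250 bases before the annotated start, from RefSeq on GRCm38.p6, for Vegfc at chr8:54077282-54077531 and for Vegfd at chrX:164373272-164373521, both on the plus strand. Capitals mark matches to a GC box (GGGCGG) or a TATA box (TATAAA) on either strand.

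Vegfc promoter: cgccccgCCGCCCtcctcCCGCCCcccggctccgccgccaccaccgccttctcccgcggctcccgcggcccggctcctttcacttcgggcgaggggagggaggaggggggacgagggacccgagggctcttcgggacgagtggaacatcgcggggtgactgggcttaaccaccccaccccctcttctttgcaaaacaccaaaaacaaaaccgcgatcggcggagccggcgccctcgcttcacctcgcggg

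Vegfd promoter: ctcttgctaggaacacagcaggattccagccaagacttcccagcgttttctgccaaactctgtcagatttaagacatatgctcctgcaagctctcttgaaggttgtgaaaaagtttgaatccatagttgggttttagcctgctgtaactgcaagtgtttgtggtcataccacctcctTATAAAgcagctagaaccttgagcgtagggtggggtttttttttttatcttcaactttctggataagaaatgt

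The Vegfc sequence had 71.6% G and C and 30 CpG dinucleotides, 2 GC boxes and no TATA box. The Vegfd sequence had 42.4% G and C and 2 CpG dinucleotides, no GC box and 1 TATA box, which began 73 bases before the start. Of 32851 mouse promoter entries of the same length, 92.7% had a lower G and C content than Vegfc and 16.9% had a lower one than Vegfd. A GC box was found in 32.7% of these entries and a TATA box in 12.4%. The core of an antioxidant response element (TGACNNNGC, either strand) matched once in Vegfc and not in Vegfd, against 10.2% of all entries. An AP-1 motif (TGANTCA) matched in neither, against 6.75%. The 4 motifs were searched separately, and their matches in the 2 sequences did not overlap. These matches describe the letters of the sequence and were not tested as binding sites.

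Expression is given as log2 of the processed signal of a probe minus log2 of the 75th percentile of the signal on its array, a level relative to the array. A change is the difference of 2 group means on this scale, and values after ± are standard errors of the limma model unless called SD. A gene was said to rise or fall where its Benjamini-Hochberg adjusted p, over all 22065 genes in that comparison, was below 0.05. Arrays had 58.3% to 62.5% of their spots well above background and a 75th percentile of 142 to 248 signal units. This percentile was lower on every PEE array, and higher on every PH-TA array, than on any control array. Used as a covariate (array signal) further on, it therefore also takes up part of the treatment differences. A call that ends with it cannot be assigned to array signal rather than treatment. The number of arrays limits the precision: of simulated shifts of 0.5 and 1 between PEE-PH-TA and control, 44% and 84% were called. Only 100 of 22065 genes were shifted by each size and the rest were unchanged, against 8.72% falling and 7.78% rising in the data. The adjusted threshold thus asked for a smaller p in the simulation, and these rates do not give the share of real shifts called. Each of 3 slides carried 1 array of every group, and the slide is also the replicate number.

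Many genes changed, which is the background for the counts below. Against control, PEE lowered 5.69% of all genes and raised 5.2%. PH lowered 3.65% and raised 1.6%, while TA lowered 1.43% and raised 0.399%. Among mixtures, PEE-PH had 20.9% falling and 14.9% rising genes. PEE-TA had 15.3% falling and 10.2% rising, and PH-TA had 17.5% falling and 12.1% rising. The triple mixture had 8.72% falling and 7.78% rising. The average effect of a compound is its mean effect over the 4 combinations of the other compounds. It gave 14.2% falling and 12.8% rising genes for PEE, 17.4% and 13.9% for PH, and 5.2% and 2.78% for TA. The balance of these calls depended on the scaling. With PEE-PH, 58.4% of the called genes fell, against 45.4% after quantile normalization and 69.9% after normexp background correction. With PH-TA the values were 59.2%, 44.8% and 75.2%, and for the average effect of PH 55.7%, 42% and 70.7%. With PEE they were 52.2% and, with normexp, 30.5%. With PEE-TA they were 60% and, after quantile normalization, 47.9%. Quantile normalization took the share from 69.6% to 54.5% with PH and from 78.2% to 67.5% with TA. The average TA effect had 65.2%, which became 53.8% with quantile normalization and 79.9% with normexp.

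Vegfc was lower than control in 5 of the 7 treatments, by 0.52 to 0.76 on the log2 scale. This left 59.2% to 69.9% of the control level, relative to the array. Before this scaling, the processed signal was 185.5 to 220.6 in control and 159.3 to 188.6 with PH-TA, which overlapped. In the other treatments with a fall, it lay below all control arrays, between 99.2 (PEE) and 168.8 (PEE-TA). The 3 Vegfc control arrays had relative levels of 0.21, 0.13 and 0.25 for replicates 1 to 3. PEE-PH-TA gave -0.46, -0.58 and -0.48, and PEE-PH gave -0.50, -0.55 and -0.62. In both mixtures every array lay far below every control array. PEE alone gave -0.25, -0.19 and -0.52, and PEE-TA gave -0.25, -0.48 and -0.48. PH-TA gave -0.39, -0.30 and -0.35. These 3 groups also did not overlap with control. PH alone was split, with 0.14 in replicate 1 and -0.39 and -0.40 in the others, so that its range reached into that of control. TA alone gave 0.26, -0.05 and 0.02, and its replicate 1 was the highest of all 24 arrays. From high to low the group means ran control, TA, PH, PEE, PH-TA, PEE-TA, PEE-PH-TA and PEE-PH, and each group overlapped with the next lower one.

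**Figure D1:**
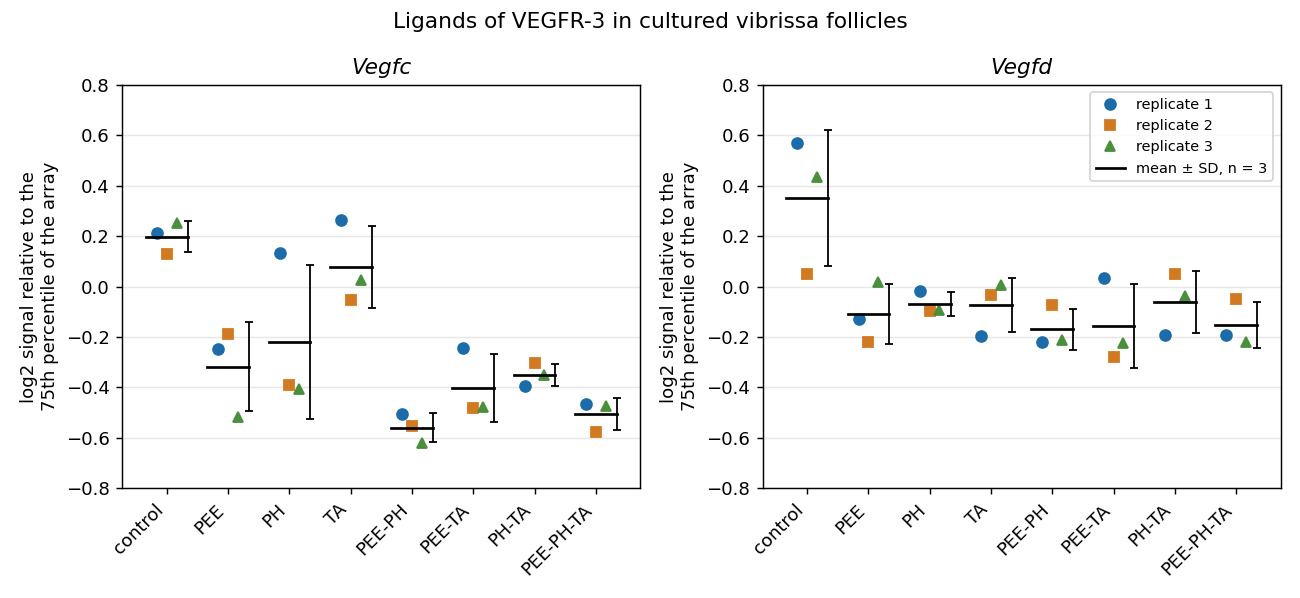
Relative level (log2 signal minus the 75th percentile of the array) of Vegfc and Vegfd in each of the 24 arrays, by group on the horizontal axis, with symbols for replicates 1 to 3 and bars for the mean and SD of 3 arrays. Vegfc was below all control arrays in PEE, PEE-PH, PEE-TA, PH-TA and PEE-PH-TA, and Vegfd in all 7 treated groups, though control replicate 2 (0.05) lay close to the treated arrays.

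In the limma model the Vegfc change against control was -0.76 ± 0.12 with PEE-PH (adjusted p = 0.000135), -0.70 ± 0.12 with PEE-PH-TA (0.00066) and -0.60 ± 0.12 with PEE-TA (0.00179). PH-TA gave -0.55 (limma, adjusted p = 0.00312), and PEE gave -0.52 (0.0102). PH alone gave -0.42, with a 95% interval of -0.67 to -0.16 and an adjusted p of 0.0524, and did not pass. It passed with replicate number as a block in the model (0.0288) and without PH replicate 1 (-0.60, 0.00468). TA alone gave -0.12, with an interval of -0.38 to 0.14 (0.679). Averaged over the other compounds, PEE lowered Vegfc by -0.37 ± 0.06 (limma, adjusted p = 0.000134) and PH by -0.30 ± 0.06 (0.0016), and both had the same sign on all 3 slides. The average effect of TA was -0.07 (0.512), with an interval of -0.20 to 0.06. The 2 average calls held when each of the 24 arrays was omitted, and of the 5 calls against control only that of PEE was ended by 1 array (PEE replicate 3, 0.0609). Without replicate numbers 2 and 3 the call with PEE ended (0.098 and 0.174), as did that with PEE-TA (0.0641 and 0.0596). With the log2 75th percentile of each array as a covariate, PEE had 0.0611, PH-TA 0.24 and the average effect of PH 0.248, and those calls ended. This percentile itself differed between control and both PEE and PH-TA, so the covariate and the treatment are not separate there.

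Less Vegfc RNA per cell and fewer cells that hold it cannot be told apart in RNA of whole follicles. The same holds for every gene below. Markers of other cell types moved in the same comparisons and are given further on. Their part in the result was not tested.

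The other probes of Vegfc show whether the change rests on 1 place in the transcript. The main probe, A_51_P433870 (NM_009506), lies at chr8:55271533-55271592 on mm9. A_55_P2745054 is listed for another transcript (EU862553) and spans 108088 bases of the genome. A_55_P2745057 (NM_009506, chr8:55244696-55244755 on mm9, plus strand) lies in coding sequence, upstream of the main probe. The corresponding pair for Vegfd is A_51_P117739 (NM_010216, chrX:160840395-160840454) and A_66_P112629 (NM_001308489, chrX:160832499-160833909), a coding probe that crosses a splice junction. The 2 coding probes are shown because they measure the part of each RNA that is translated, 5′ to 3′ as on the array and in lower case throughout.

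Vegfc coding probe A_55_P2745057: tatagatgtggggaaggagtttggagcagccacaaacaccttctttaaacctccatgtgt

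Vegfd coding probe A_66_P112629: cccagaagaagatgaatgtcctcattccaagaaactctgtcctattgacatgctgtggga

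With PEE-PH-TA all 3 Vegfc probes passed, at -0.70 ± 0.12, -0.60 ± 0.15 (adjusted p = 0.00888 over 33340 probes in the limma model) and, for the coding probe, -1.27 ± 0.32 (0.0107). With PEE-TA all 3 passed too, at -0.60, -0.47 (0.026) and -0.92 (0.0419). In the other 3 treatments in which the main probe fell, at least 1 of the other probes did not pass. With PEE-PH, A_55_P2745054 passed (-0.61, limma, adjusted p = 0.00355) and the coding probe did not (-0.68, 0.106). With PH-TA, the coding probe passed (-0.87, 0.0495) and A_55_P2745054 did not (-0.39, 0.0535). With PEE alone neither passed, at -0.38 (0.118) and -0.63 (0.245). The average effects of PEE and PH passed by every Vegfc probe, with -0.36 (limma, 0.00117) and -0.27 (0.00903) for A_55_P2745054 and -0.44 (0.0488) and -0.51 (0.0223) for the coding probe. TA alone gave 0.06 and -0.05. The coding probe was well above background on 19 of 24 arrays, and on all 3 arrays of control, TA, PH-TA and PEE-PH. The second Vegfd probe had the same sign as the first in every treatment, from -0.23 to -0.63, but passed only with PEE-PH-TA (-0.63 ± 0.18, 0.0242). It did not pass in the other 5 treatments in which the main probe fell, with -0.47 for PEE (0.118), -0.35 for PEE-TA (0.171), -0.30 for PEE-PH (0.207), -0.29 for PH (0.394) and -0.24 for PH-TA (0.339).

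**Figure D2:**
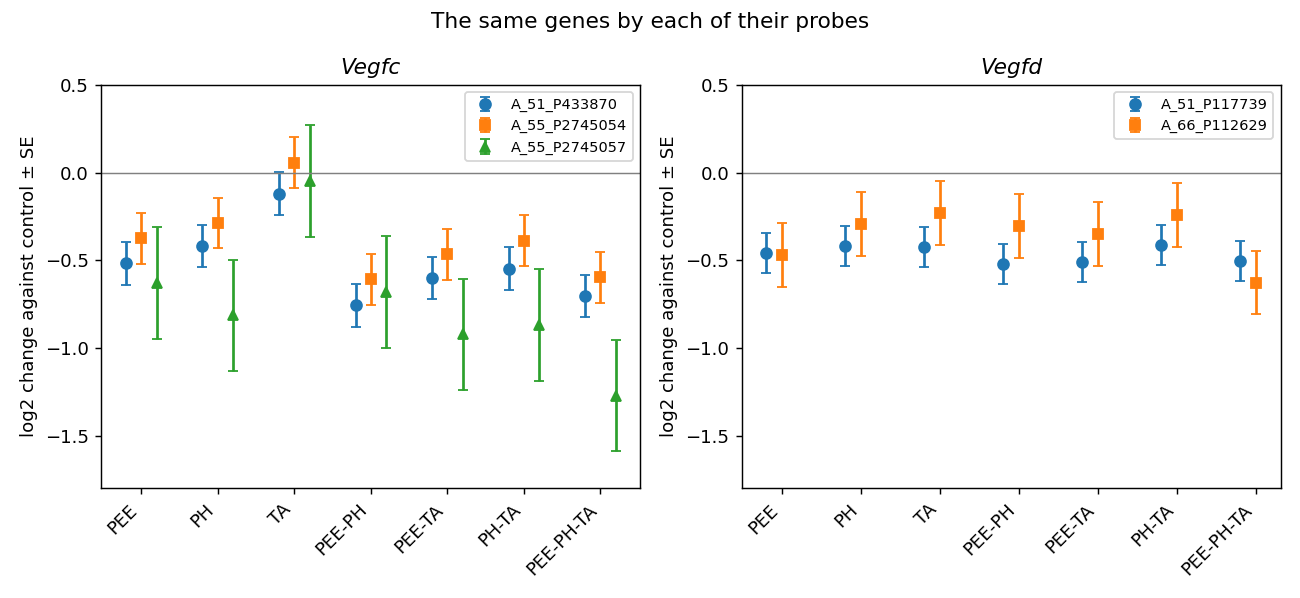
Log2 change against control with its standard error for each probe of Vegfc (3) and Vegfd (2) in the 7 treatments. All Vegfc probes were below 0 except A_55_P2745054 with TA (0.06), and the coding probe A_55_P2745057 reached -1.27 with PEE-PH-TA with the widest errors. Both Vegfd probes were below 0 throughout.

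Vegfd was lower in every treated group by a similar amount, 0.41 to 0.52 on the log2 scale, also with TA and PH alone. Every one of these changes contains the same control mean, so they do not count as separate results. The Vegfd control arrays had 0.57, 0.05 and 0.43 for replicates 1 to 3, with an SD of 0.27, the widest of any group. All 21 treated arrays lay between -0.28 and 0.05, below the lowest control array. The separation was narrow at control replicate 2, which exceeded the highest treated array, PH-TA replicate 2, by 0.000792. Group means of treated follicles ran from -0.06 with PH-TA to -0.17 with PEE-PH, and each overlapped with the next. The values of the triple mixture were -0.19, -0.05 and -0.22, those of PH alone -0.02, -0.10 and -0.09, and those of TA alone -0.19, -0.03 and 0.01. Before scaling, the processed signal was 175.5 to 282.6 in control (median 210.1) and 198.3 to 237.2 with PH-TA (median 216.9). Only PEE (121.9 to 143.8) and PEE-PH-TA (161.1 to 169.3) lay below all control arrays on that scale. With PH-TA the Vegfd fall was thus one of the level relative to the array.

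The Vegfd change was -0.52 ± 0.11 with PEE-PH (limma, adjusted p = 0.00183), -0.50 with PEE-PH-TA (0.00491) and -0.51 with PEE-TA (0.00368). PEE gave -0.46 (0.0137), PH-TA gave -0.41 (0.0118) and PH gave -0.42 (0.0388). TA gave -0.42 and did not pass (0.0615), at a size no smaller than that with PH or PH-TA. The size differed between slides: with PEE-PH-TA it was -0.76 on slide 1, -0.10 on slide 2 and -0.65 on slide 3, and with PH-TA it was -0.76, -0.000792 and -0.47. Leaving out single arrays ended the calls with PEE (highest adjusted p 0.0827, without control replicate 1), PH (0.158, without control replicate 3) and PH-TA (0.0674, without PH-TA replicate 1), by 3, 5 and 3 of 6 arrays. The calls with PEE-PH, PEE-TA and PEE-PH-TA held without each of 6 arrays, with a highest adjusted p of 0.0326, while without replicate number 3 they had 0.0655, 0.119 and 0.145. Without control replicate 2, TA passed too (-0.58, 0.0348). With array signal as a covariate PEE had 0.136, PH 0.0649 and PH-TA 0.217. The average effect of PEE on Vegfd was -0.18 ± 0.06 (limma, adjusted p = 0.0214), and held without each of 24 arrays (highest 0.0418), but not without replicate number 1 (0.0676) or 3 (0.226), nor with array signal as a covariate (0.0719). By background, PEE gave -0.46 over control, -0.10 over PH, -0.08 over TA and -0.09 over PH-TA. Over each of PH, TA and PH-TA the value was above 0 on 1 of 3 slides. PH and TA averaged -0.12 (0.129) and -0.11 (0.236).

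The measured Vegfd change in each mixture was smaller than the sum of its single effects, but no difference passed. If single effects added on the log2 scale, the triple mixture would lie 0.80 ± 0.23 lower than measured, and PEE-PH, PEE-TA and PH-TA 0.36, 0.38 and 0.43 lower. These differences were above 0 on all 3 slides, with 95% intervals of 0.32 to 1.28 for the triple mixture and 0.10 to 0.77 for PH-TA, but none passed (limma, adjusted p = 0.765, 0.419, 0.54 and 0.61). All 4 contain the same control mean, so they do not count as separate results. For Vegfc the differences from the sum were 0.35 (-0.16 to 0.86), 0.18, 0.04 and -0.01, with adjusted p from 0.744 to 0.997. No member passed in any of these 4 comparisons in limma, where 1, 1, 2 and 1 of the 6 had an unadjusted p under 0.05 for PEE-PH, PEE-TA, PH-TA and PEE-PH-TA. Of all genes 0%, 0.068%, 0.0136% and 0% passed for PEE-PH, PEE-TA, PH-TA and PEE-PH-TA, with 2473, 1844, 1475 and 1307 genes at an unadjusted p under 0.05. The number of members past the threshold was 2 with PEE, PEE-PH, PEE-TA, PH-TA and PEE-PH-TA, 1 with PH and 0 with TA, in each case Vegfc or Vegfd, and all fell. With TA 2 members, Vegfd and Prox1, had an unadjusted p under 0.05 in limma, as had 3768 of all genes.

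**Figure D3:**
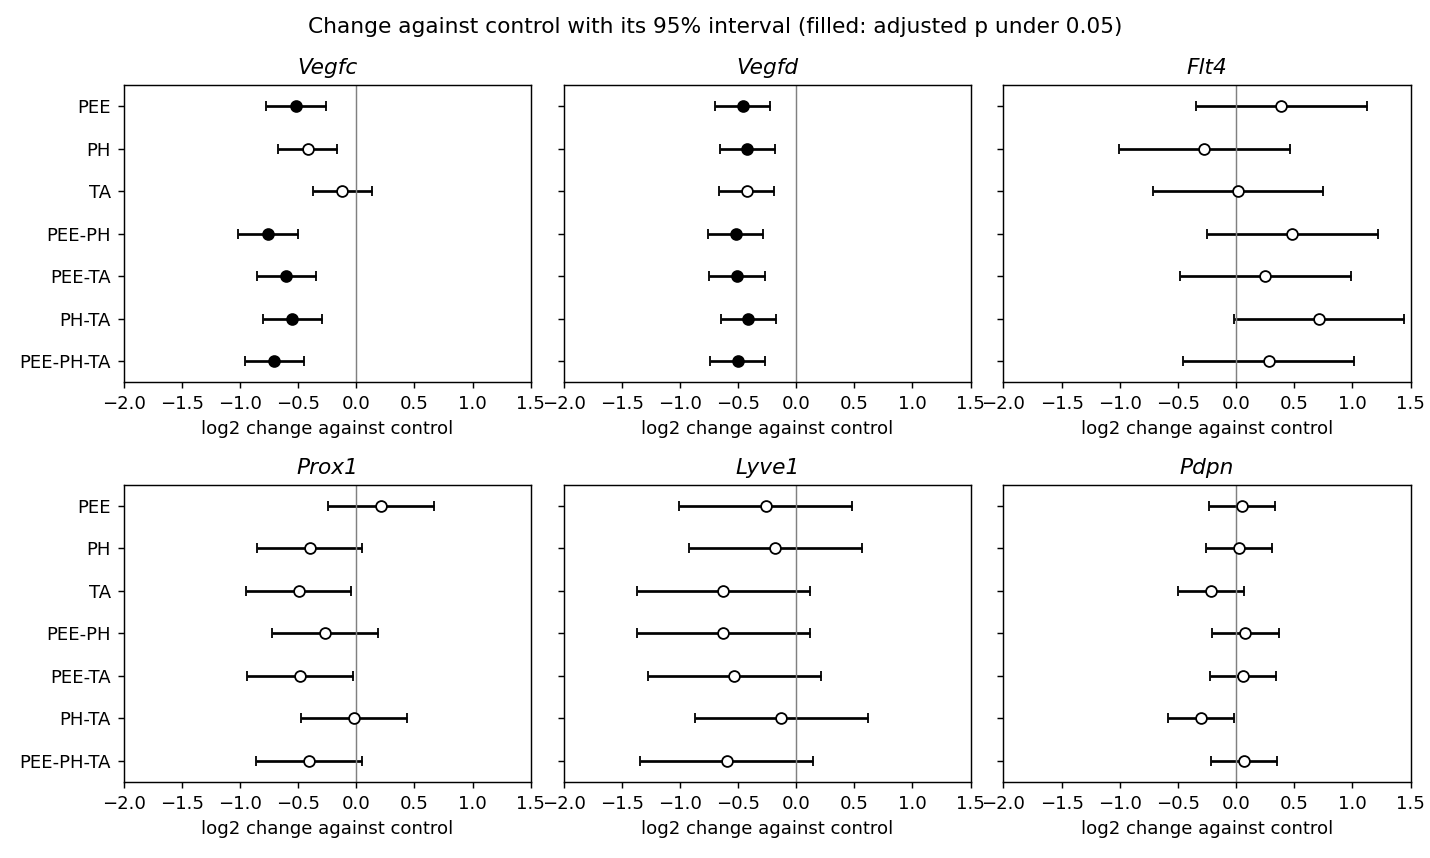
Log2 change against control with its 95% interval for the 6 genes (panels) and the 7 treatments (rows); filled points passed at an adjusted p of 0.05. Filled points are found for Vegfc (5 treatments) and Vegfd (6), all below 0, and for none of the other 4 genes, whose intervals are wider for Flt4, Lyve1 and Prox1 than for Pdpn.

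Flt4, the receptor of both ligands (probe A_51_P179531, chr11:49465646-49465705 on mm9), was dim and variable, though well above background on 24 arrays, and no comparison passed. Its processed signal ran from 5.42 to 26 with a median 1.32 log2 units above the lowest detected signal. Control arrays had relative levels of -4.53, -4.63 and -3.77, and PEE-PH-TA arrays -3.55, -4.12 and -4.42. The groups overlapped. The highest mean was that of PH-TA, with -3.25, -3.56 and -3.98, a change of 0.71 ± 0.35 (limma, adjusted p = 0.132) with an interval of -0.02 to 1.45. The lowest was that of PH, with -4.79, -3.81 and -5.14. The change with PEE-PH-TA was 0.28, with an interval of -0.45 to 1.01, which spans values on both sides of 0. Under normexp correction the change with PEE passed (0.23, 0.036), and that for the average effect of PH, 0.14 (0.579), turned to -0.10 (0.037).

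Prox1 (probe A_55_P2733097, chr1:191943668-191943727 on mm9) did not pass in any comparison. Control arrays had -2.71, -3.05 and -1.88, and the third was the highest of all 24 arrays. PEE gave -2.23, -2.50 and -2.27, tightly above the other 2 controls, and TA gave -3.14, -2.85 and -3.14, the lowest group mean. PH-TA gave -2.59, -2.65 and -2.46, and did not overlap with PEE-PH, the next group down (-2.95, -2.79 and -2.72). PEE-PH-TA gave -2.59, -3.34 and -2.94. The change was 0.22 with PEE (limma, adjusted p = 0.583), -0.50 with TA (0.247), -0.41 with PEE-PH-TA (0.226) and -0.49 with PEE-TA (0.109). These values depended on control: without control replicate 3 the change with PEE was 0.55 (0.055), with TA -0.16 (0.786) and with PEE-TA -0.15 (0.594). Without control replicate 2, PEE-TA (-0.74, 0.0216) and PEE-PH-TA (-0.66, 0.0474) passed. The other Prox1 probe, A_66_P101490, gave 0.21 with PEE (0.66), -0.44 with TA (0.371) and -0.35 with PEE-PH-TA (0.368). With PEE-TA it gave only -0.14 (limma, adjusted p = 0.717), so the probes differed in size there.

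Lyve1 (probe A_52_P686785, chr7:117994171-117994230 on mm9) did not pass either, and its control replicate 3 was again the highest of 24 arrays, with -1.42 beside -2.56 and -2.75. PEE-PH-TA gave -2.32, -3.53 and -2.68, and TA gave -2.41, -2.76 and -3.44. Only PEE (-2.47, -2.36 and -2.69), PH (-2.18, -2.44 and -2.64) and PEE-PH (-3.06, -2.67 and -2.89) were tight. The change was -0.60 ± 0.35 with PEE-PH-TA (limma, adjusted p = 0.283), -0.63 with PEE-PH (0.179) and -0.62 with TA (0.388). Without control replicate 3 these were -0.19, -0.22 and -0.21. Its interval with PEE-PH-TA, -1.34 to 0.15, leaves a large fall possible at this number of arrays.

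Pdpn (probe A_55_P2746348, chr4:142857423-142857482 on mm9) was bright, with processed signals of 5662 to 10730, and moved little. Control arrays had 5.29, 5.42 and 5.63, PEE-PH-TA arrays 5.47, 5.47 and 5.59, and PH-TA arrays 5.08, 5.09 and 5.26. PH-TA lay below all controls, by -0.30 ± 0.14, and did not pass (limma, adjusted p = 0.105). With PEE-PH-TA the change was 0.07, within an interval of -0.22 to 0.35. Averaged over backgrounds, PEE raised Pdpn by 0.19 ± 0.07 (limma, adjusted p = 0.047), and this average had the same sign on 3 slides. By background it was 0.05 over control and 0.06 over PH, with slides of both signs. Over TA it was 0.28 and over PH-TA 0.37, above 0 on all 3 slides. The call for the average ended without 17 of 24 arrays (highest 0.089, without TA replicate 2), without replicate number 2 (0.444) or 3 (0.153), with array signal as a covariate (0.27) and with replicate number as a block (0.0535). The average effect of PEE thus passed for 3 members, with Vegfc and Vegfd lower and Pdpn higher, that of PH for 1 (Vegfc) and that of TA for 0 in limma, with 1 member (Prox1) and 5390 of all genes at an unadjusted p under 0.05.

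**Figure D4:**
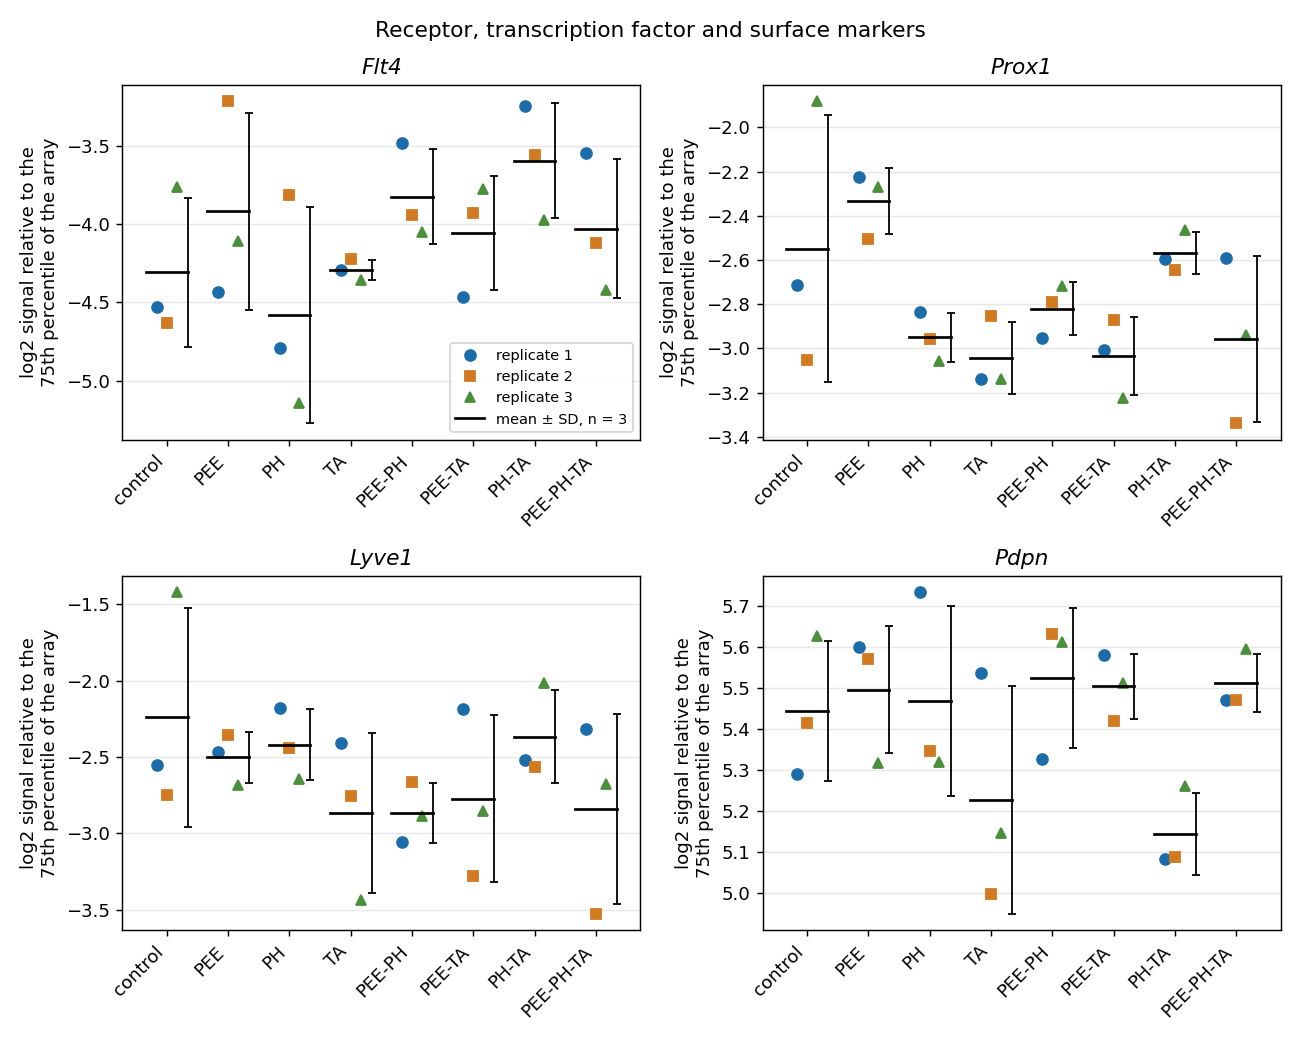
Relative level (log2 signal minus the 75th percentile of the array) of Flt4, Prox1, Lyve1 and Pdpn in each array, with symbols for replicates 1 to 3 and bars for mean and SD of 3 arrays. Control replicate 3 is the highest of 24 arrays for Prox1 (-1.88) and Lyve1 (-1.42), and groups overlap with control except PH-TA for Pdpn.

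The pairs of members differed in how they varied together across arrays and within groups. Vegfc and Pdpn had a Pearson correlation of 0.01 over 24 arrays but 0.73 after group means were taken off, the highest such value of the 15 pairs. Lyve1 had 0.59 with Pdpn and 0.51 with Vegfc within groups. Prox1 and Lyve1 had a Pearson correlation of 0.65 over 24 arrays and 0.68 after group means were taken off. Vegfc and Vegfd had 0.60, but 0.08 after group means were taken off. Mmrn1, which encodes multimerin of lymphatic and other endothelium, was among the 3 of 15504 named genes most like Prox1 (0.75, and 0.71 within groups), with Dtx1 (0.78) and Cd80 (0.74). Mmrn1 and Lyve1 had 0.48 and, within groups, 0.72. The control array with the highest Prox1 and Lyve1 also had the highest Mmrn1, at -2.18 beside -3.44 and -3.76 in the other 2 controls. Control had the widest SD of any group for Prox1 (0.60), Lyve1 (0.72) and Mmrn1 (0.84). The correlations among these 3 genes thus rest in part on that array, and they were not computed without it. PEE arrays had Mmrn1 at -2.25, -2.31 and -2.39, a change of 0.81 that did not pass (limma, adjusted p = 0.151). These correlations describe arrays that share slides and groups.

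**Figure D5:**
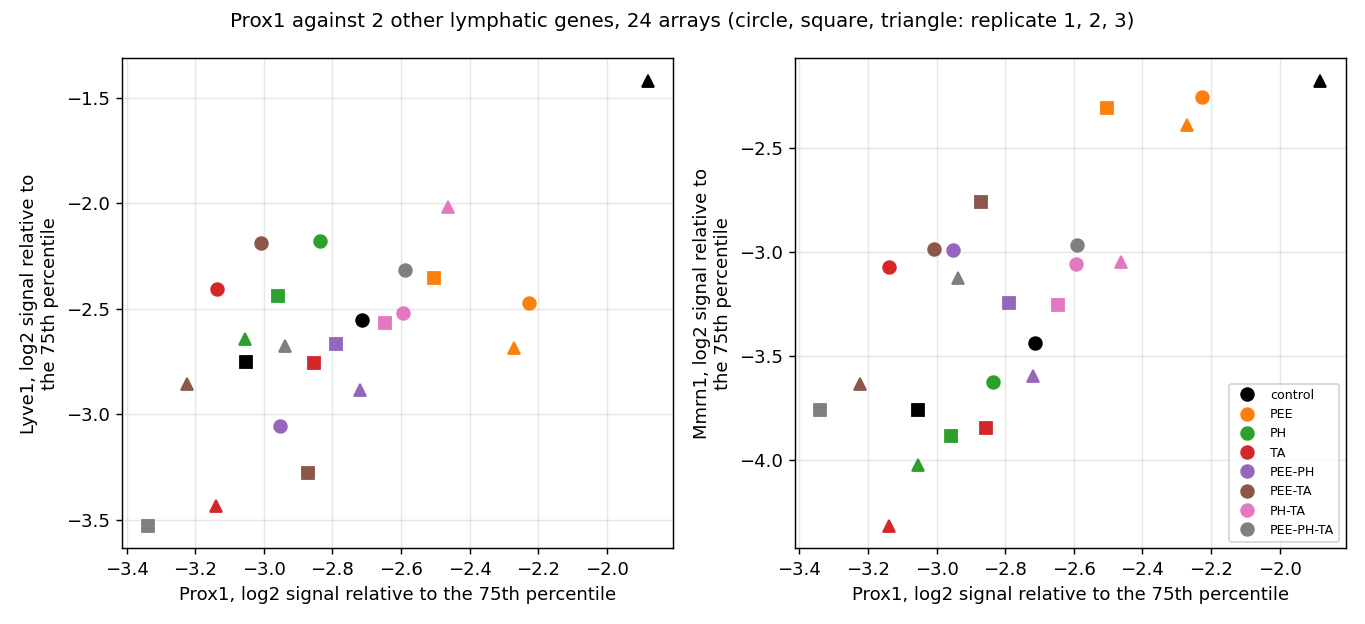
Relative level of Prox1 (horizontal) against Lyve1 and Mmrn1 (vertical), both as log2 signal minus the 75th percentile of the array, with 1 symbol per array and colours for groups. Control replicate 3 lies alone at the upper right, and the PEE arrays are high in Prox1 and Mmrn1 but not in Lyve1.

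The genes whose profile over 24 arrays was most like that of Vegfc were Psmb9 (0.96), a subunit of the immunoproteasome, Slfn2 (0.94) and Rarres2 (0.93), which encodes chemerin. With PEE-PH-TA they fell by 1.09, 1.36 and 1.29 (limma, adjusted p = 0.000557, 0.000581 and 0.000523). For Vegfd they were Pttg1 (0.83), Niban3 (0.80) and Mcpt4 (0.79), a mast cell protease. For Flt4 they were Agap2 (0.83), Isca1 (0.81) and Fgd5 (0.81), a gene of endothelial cells, and for Lyve1 Scn3a (0.73), Dennd10 (0.71) and Morf4l1 (0.69). For Pdpn they were Ptges (0.89), which encodes a prostaglandin E synthase, Ptgs2os2 (0.88) and Fgf7 (0.85), a growth factor of dermal cells.

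Ccbe1 fell in the 5 treatments in which Vegfc fell. It encodes a secreted protein that, with a protease of the ADAMTS family, is needed to release mature VEGF-C. Its control arrays had -0.28, -0.34 and -0.13, PEE arrays -0.75, -1.01 and -0.99, PEE-PH arrays -1.32, -1.18 and -1.42 and PEE-PH-TA arrays -1.09, -1.14 and -0.93. No treated array of these groups reached the lowest control array. Ccbe1 fell with PEE (-0.67), PEE-PH (-1.06), PEE-TA (-0.76), PH-TA (-0.54) and PEE-PH-TA (-0.81 ± 0.12, limma, adjusted p = 0.000198). Of its 2 tested probes only the brighter one gave these values, as for Furin and Itga9 below. The other probe is not reported here. PH alone (-0.40, 0.0606) and TA alone (-0.14, 0.616) did not pass, as for Vegfc. Averaged over backgrounds, PEE lowered Ccbe1 by -0.55 ± 0.06 (limma, adjusted p = 1.82e-06) and PH by -0.31 (0.00123), while TA gave -0.03 (0.798). The 5 calls against control and these 2 held when each array was omitted.

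Ccbe1 belongs to a list of 16 genes of VEGF-C and VEGF-D processing, co-receptors and other lymphangiogenic signals, of which 15 were tested and which went both ways. With PEE-PH-TA 3 of 15 rose and 1, Ccbe1, fell, and the list's median change was 0.11, against -0.00 for all genes. Pcsk5, a proprotein convertase that cuts VEGF-C, rose by 0.75 ± 0.17 (limma, adjusted p = 0.00486), Tek, the angiopoietin receptor TIE2, by 0.57 (0.0315) and Itga9, an integrin of lymphatic valves, by 0.40 (0.0473). The last 2 calls ended without 4 and 5 of 6 arrays (highest 0.12 and 0.166, both without PEE-PH-TA replicate 1). With PEE-PH, PEE-TA and PH-TA 7, 8 and 7 of 15 rose and 2 fell. Without replicate number 2 the risers were 3, 1 and 4, without number 1 they were 5, 8 and 4, and without number 3 they were 6, 2 and 7. With array signal as a covariate they were 3, 3 and 0. Pcsk5 rose by 1.40, 1.17 and 1.06 in them. Furin, another convertase of VEGF-C, was chosen after its values were seen: it fell with PEE-PH (-0.46, 0.00347) and PH-TA (-0.46, 0.00547) and was -0.16 with PEE-PH-TA (0.354). With PEE alone 2 rose and 1 fell, with PH 2 rose, and with TA 0 passed, where 6 of 15 had an unadjusted p under 0.05 in limma. For the average effect of PEE 3 rose (0 to 4 over 11 alternatives) and 2 fell, among them Calcrl, the adrenomedullin receptor of lymphatic endothelium (0.32, 0.00427), and Angpt1, a ligand of TIE2 (-0.24, 0.0272). The call of Angpt1 ended without 6 of 24 arrays (highest 0.0532, without control replicate 1). Nrp2, a co-receptor of VEGFR-3, was 0.11 (0.437) with PEE-PH-TA. Without replicate numbers 1, 2 and 3, 1, 0 and 0 of the list rose with PEE-PH-TA, and 2 rose with replicate number as a block.

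Among lymphatic transcription factors besides Prox1, Nr2f2, a partner of PROX1, fell with PEE-PH-TA (-0.43, limma, adjusted p = 0.0129), and this call ended without 2 of 6 arrays (highest 0.0725, without control replicate 3). For the average effect of PEE, Sox18 (0.30) rose and Klf2 (-0.40) and Foxc1 (-0.18) fell, and the call of Foxc1 ended without 17 of 24 arrays (highest 0.0883, without PEE-TA replicate 3). Of 6 other markers of lymphatic vessels 0 passed with PEE-PH-TA in limma, and 1 had an unadjusted p under 0.05. With replicate number as a block, in the authors' value table and without replicate number 1, 1 of the 6 fell. Ccl21a, the chemokine of lymphatic vessels, had the largest value, -1.79 ± 0.61 (0.0529), and fell with PEE-PH (-1.97, 0.0178), a call that ended without 4 of 6 arrays (highest 0.0724, without control replicate 3). Reln was higher with PEE (0.87, 0.00962), a call that ended without 1 array, PEE replicate 2 (0.0576), and for the average effect of PEE (0.50, 0.000986). The summed relative signal of these 6 markers ran from 1.25 to 2.04 in control and from 1.08 to 1.31 with PEE-PH-TA, and all 6 were well above background on 24 arrays.

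Of 12 general endothelial genes 7 rose and 0 fell with PEE, with a median of 0.50, and with PEE-TA 8 rose and 1 fell. These counts depended on single slides: without replicate numbers 1, 2 and 3, 1, 0 and 4 rose with PEE and 8, 1 and 3 with PEE-TA. With array signal as a covariate 0 rose with PEE and 5 with PEE-TA, and with replicate number as a block 5 rose with PEE. The median with PEE stayed between 0.37 and 0.59 over 12 alternatives. With PEE-PH-TA Cdh5 (0.56, limma, adjusted p = 0.0224) and Emcn (0.53, 0.0407) rose and Erg fell (-0.49, 0.00792), and the calls of Cdh5 and Emcn ended without 4 and 5 of 6 arrays (highest 0.0977 without control replicate 2 and 0.143 without PEE-PH-TA replicate 2). The summed signal of the 12 genes was 63.5 to 69.2 in control, 77.2 to 86.2 with PEE and 61.6 to 72.9 with PEE-PH-TA. All 12 were well above background on every array.

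Macrophages are known to express Vegfc and Lyve1, and part of their markers fell. With PEE-PH-TA 8 of 16 fell and 0 rose, with a median of -0.44, and without replicate numbers 1, 2 and 3 the number that fell was 8, 5 and 4. Folr2 fell by 1.30 ± 0.15 (limma, adjusted p = 1.6e-05), Fcgr1 by 1.34 (0.000346) and Aif1 by 0.90 (2.18e-05), while Lyz2 (0.02), Cd68 (0.10) and Csf1r (-0.20) did not pass. For the average effect of PEE 9 fell and 2 rose, Lyz2 by 0.32 and Cd68 by 0.19. With TA 0 of 16 passed in limma, and 2 had an unadjusted p under 0.05. The summed signal was 61.7 to 77.1 in control, 70.1 to 81.4 with PEE and 53.7 to 63.8 with PEE-PH-TA, but this sum is carried by bright genes such as Lyz2, whose level was 4.66 ± 0.34 (SD, n = 3) in control and 5.15 ± 0.12 (SD, n = 3) with PEE. With PEE 5 of 16 markers fell (Folr2, Fcgr1, C1qa, C1qc and Aif1) and 2 rose (Lyz2 and Itgam), with a median of -0.19, and without replicate numbers 1, 2 and 3, 1, 2 and 3 fell and 0 rose. Of the 16 markers 15 were well above background on all arrays, and Cd163 was so on 3. The part of macrophages in the Vegfc result was not tested.

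Among markers of other follicle cell types, with PEE-PH-TA, 0 rose and 2 fell of 9 for basal and outer root sheath keratinocytes, 0 and 3 of 11 for fibroblasts and dermal sheath, and 0 and 1 of 7 for the dermal papilla. Of 10 genes of the hair shaft and inner root sheath 4 rose and 1 fell, and of 10 of skeletal muscle 1 rose. Of all genes, 8.72% fell and 7.78% rose in this comparison. Skeletal muscle, which surrounds the whisker follicle, had a summed signal of 27.1 to 33.3 in control and 39.9 to 59.6 with PEE-PH-TA, and 7 of its 10 genes rose with PEE-PH. That count was 0 without replicate number 2 and 10 under normexp, and the 4 risers of the hair shaft and inner root sheath with PEE-PH-TA became 1, 3 and 1 without replicate numbers 1, 2 and 3. Krt71 and Krt25, keratins that define the inner root sheath of the labelled tissue, were well above background on all arrays. The part of these cell types in the Vegfc and Vegfd results was not tested.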

How the data were processed

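Total RNA of 24 follicle samples was hybridised to one-colour Agilent arrays, each with 59305 spots without controls for 56605 probes. Per the file headers, the authors read signal intensities from the images with Agilent Feature Extraction 12.0.3.1, a version also given in the submitters' processing notes, on the mouse build NCBI37 (mm9). The labels name biotin, while the scans hold 1 channel. The intensity tested was the deposited processed signal, as log2 minus the log2 75th percentile of the array. The authors also deposited a table of normalized log2 values (column medians 3.97 to 4.06). Each of its 24 columns matched the scan of the same sample best, and the normalization is not given in the sources used here.

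Testing took the 33340 probes that all arrays of 1 or more groups showed well above background. Spots marked non-uniform (41) or as outliers (2347) were set to missing, and 25 probes were left out for this. No spot was saturated. Symbols were updated through RefSeq accession for 35405 probes, of which 1 changed. Each gene was represented by its brightest probe on average. One limma model over 24 arrays with 8 group means (16 residual and 2.19 prior degrees of freedom) gave 14 contrasts, adjusted within each by Benjamini and Hochberg. The model was tested on simulated data, with 8 false calls and 0 in the wrong direction. P-values measure the spread between 3 experiments per group.

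The members and lists were chosen with earlier results of these data known. Named besides the members are, per member, the 3 genes with the most similar profile, and per list up to 3 risers and 3 fallers for PEE-PH-TA and the average effect of PEE, of which not all are reported here. Other list genes, among them Furin, Ccl21a, Mmrn1, C1qc, Itgam, Nrp2, Csf1r, Lyz2 and the keratins, are named for their role or level and were chosen after their values were seen. The alternatives tried were normexp background (offset 50), quantile normalization, the value table, no filter, the mean of all probes, replicate number as a block, an intensity-dependent robust prior, a fit to the compared groups alone, array signal as a covariate, and leaving out arrays or replicate numbers. Leaving out arrays for list genes was added after seeing the data. Same-numbered samples deviated together in 44 of 84 pairs (r over 0.1, mean r 0.101). The main fit had no block because the labels state no paired analysis, and the block is given as an alternative. Fits used limma 3.58.1 in R 4.3.3, tables were read with the package data.table (1.17.8), and figures were drawn with matplotlib 3.10.9 under Python 3.11.15.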

Additional observations from a re-analysis of the deposited data

Results flagged for a closer look

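Flt4 and Prox1 moved in opposite directions in some cases when the same compound was added to different media. Each addition listed had the same sign on all 3 slides, but these differences were not tested. The cases were picked, after their values were seen, from the additions of every compound to every medium for all members. Agreement in sign on 3 slides can arise by chance in such a choice. Flt4 was also dim, with a processed signal of 5.4 to 26. For Flt4, the level was higher with TA added to PH (1.54, 0.25 and 1.17 on slides 1 to 3) and lower with TA added to PEE-PH (-0.06, -0.18 and -0.37), a difference of means of 1.19. For Prox1, the level was higher with PH added to TA (0.54, 0.21 and 0.68) and lower with PH added to PEE (-0.73, -0.28 and -0.45), a difference of 0.963. For Prox1, TA added to PH gave 0.24, 0.31 and 0.59 and TA added to PEE gave -0.78, -0.37 and -0.95, a difference of 1.08. Both Prox1 differences contain the PH-TA and PEE arrays, so they are not separate results.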

How the results depend on the processing

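Of all member results, 1 reversed: the average effect of PH on Flt4, 0.14 and not called, was -0.10 and called under normexp; the cause was not tested. The number of members past the threshold moved as follows. Under normexp it was 3 for PEE, where Flt4 was added to Vegfc and Vegfd, 2 for PH, 4 for PEE-PH, 3 for the average effect of PH and 1 for that of TA. Without the filter it was 0 for PH. With the mean of all probes it was 1 for PEE, 0 for PH and 1 for PH-TA. With a trended and robust prior it was 2 for PH and 1 for TA. The array-signal covariate, which differed between control and both PEE and PH-TA, left 0 for PEE, PH and PH-TA. It left 1 for the average effect of PEE and 0 for that of PH. With only the arrays compared it was 1 for PEE, 0 for PH, and 1 for PEE-TA, PH-TA and PEE-PH-TA, where fewer degrees of freedom are left. With the replicate block it was 2 for PH, and 2 in place of 3 for the average effect of PEE, with the cause not tested, while the block changed no other call of a member. With an array or a replicate number left out it ran from 0 to 2 for PEE, 0 to 1 for PH and TA, 1 to 2 for PEE-PH and PH-TA, 0 to 3 for PEE-TA, 1 to 3 for PEE-PH-TA and the average effect of PEE, and 1 to 2 for that of PH. In the value table and after quantile normalization the calls of Vegfc and Vegfd against control were the same. The all-gene median change became -0.10 (PEE-PH) and -0.12 (PH-TA) under normexp. Without the filter it became 0.12 (PEE), -0.19 (PEE-PH), -0.14 (PEE-TA), -0.20 (PH-TA), -0.11 (average effect of PH), and -0.14 and -0.13 for PEE-PH and PEE-TA against the sums. The Flt4 signal had a median 1.32 log2 units above the lowest detected signal, which limits how low a level could be measured.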
